A study of Mus musculus with 18 samples.

Results

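Xenobiotic and steroid metabolising enzymes were read from ribosome-bound RNA of endothelial cells and from the RNA of the tissue around them. The module was chosen by gene symbol alone: every listed cytochrome P450 with a Cyp symbol, every glutathione S-transferase with a Gst or Mgst symbol, every sulfotransferase (Sult), epoxide hydrolase (Ephx) and family 1 aldo-keto reductase (Akr1), plus Por and Nqo1. It held 65 genes of the 14411 in the deposited tables: 29 cytochromes P450, 18 cytosolic or mitochondrial and 2 microsomal glutathione S-transferases, 6 aldo-keto reductases, 5 sulfotransferases, 3 epoxide hydrolases, Por and Nqo1. Brain had 59 of them listed, Retina 46 and Choroid 36, and 30 were listed in each of the 3 tables. Symbols that are not caught by this rule, such as the P450 enzymes Ptgis and Tbxas1, are counted apart in lists of related genes. Tbxas1 was not measured in Retina or Choroid.

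The 6 groups were Brain Positive, Brain Input, Retina Positive, Retina Input, Choroid Positive and Choroid Input, with 3 libraries each. All mice were Cdh5(PAC)-cre/ERT2+; NuTRAP+ and Tam-induced, so the Input groups carried the same alleles and treatment as the Positive groups. Cdh5(PAC)-cre/ERT2 is a tamoxifen-dependent recombinase under the endothelial Cdh5 promoter, and NuTRAP, once recombined, puts GFP on a ribosomal protein. Positive is the RNA of ribosomes pulled down with an anti-GFP antibody (translating ribosome affinity purification, TRAP), and Input is a part of the same supernatant set aside before the pull-down. Ages, sexes and the number of animals were not stated. The labels speak of biological replicates without saying whether tissue was pooled, so the spread behind each p-value is that of these libraries and may be technical. In bulk RNA, a difference in the number of cells of a type and a difference in RNA per cell cannot be told apart.

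Enzymes of this module turn lipophilic compounds into excretable ones. Microsomal cytochromes P450 insert oxygen with electrons that Por, the P450 oxidoreductase, passes on from NADPH. Epoxide hydrolases, aldo-keto reductases and Nqo1 handle the reactive epoxides, carbonyls and quinones. Glutathione S-transferases and sulfotransferases attach a polar group. Other members make or clear signalling lipids, among them cholesterol metabolites, neurosteroids, retinoic acid and fatty acid epoxides. The endothelium of brain and inner retina forms a barrier to blood-borne compounds, whereas the capillaries of the choroid, which supply the outer retina, are fenestrated.

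The listed counts summed to between 12325658 and 43219831 per Brain or Retina library, but to 2717264, 713733 and 1679648 in Choroid Positive 1, 2 and 3 and to between 2018126 and 10031274 in Choroid Input. In Choroid Positive 2 a single count was worth 1.59 CPM (counts scaled to the effective library size), against 0.0224 to 0.0842 CPM in the Brain and Retina libraries. The tables keep a gene whose raw value was at least 50 in every library of at least 1 fraction. In Brain 8 members met this in Positive alone and 4 in Input alone, in Retina 2 and 6, and in Choroid 0 and 30. Over all genes these were 528 and 609 of 13957 in Brain and 329 and 874 of 12827 in Retina. In Choroid they were 137 and 4439 of 7569. The minimum is a raw count and so also depends on depth. Listing through 1 fraction favours a higher value there but does not fix it. Akr1b3, listed in Choroid through Input alone, had a log2 fold change of 0.16 there. The 12 endothelial markers were higher in Positive wherever measured (12 of 12 in both Brain and Retina, 11 of 11 in Choroid), and made up 0.568 to 0.619% of the listed counts in Brain Positive against 0.0172 to 0.0208% in Brain Input, 0.256 to 0.496% in Retina Positive against 0.00497 to 0.00656% in Retina Input, and 1.06 to 1.38% in Choroid Positive against 0.146 to 0.231% in Choroid Input.

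Promoter sequences of 4 members are printed because they hold the motifs through which the aryl hydrocarbon receptor (the dioxin sensor) and NRF2 (the oxidant sensor) are known to act on this class of genes. Cyp1b1 is a textbook target of the first, Akr1c14 was the member with the largest increase in Brain and Retina, Cyp46a1 held the most matches and fell in Brain, and Mgst1 had the antioxidant match among the members that rose in Brain and Retina and fell in Choroid. Sequences are from RefSeq on GRCm38.p6 (mm10), 250 bases before to 50 after the annotated start, 5′ to 3′ on the gene's strand. Capitals mark the receptor core GCGTG, or its reverse complement CACGC, and in Mgst1 the reverse complement of the antioxidant response element TGACNNNGC.
Cyp1b1, chr17:79715012-79715311, minus strand: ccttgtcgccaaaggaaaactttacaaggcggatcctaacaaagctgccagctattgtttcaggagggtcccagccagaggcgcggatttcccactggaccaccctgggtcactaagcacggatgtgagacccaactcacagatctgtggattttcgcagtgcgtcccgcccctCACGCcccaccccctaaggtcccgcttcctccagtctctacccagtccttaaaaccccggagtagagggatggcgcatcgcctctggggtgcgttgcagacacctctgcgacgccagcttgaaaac
Akr1c14, chr13:4059341-4059640, plus strand: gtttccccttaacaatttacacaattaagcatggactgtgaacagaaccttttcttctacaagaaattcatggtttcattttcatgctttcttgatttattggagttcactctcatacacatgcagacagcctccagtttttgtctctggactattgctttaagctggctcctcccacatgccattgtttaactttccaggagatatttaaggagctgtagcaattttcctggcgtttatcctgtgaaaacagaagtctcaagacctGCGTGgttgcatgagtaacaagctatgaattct
Cyp46a1, chr12:108334066-108334365, plus strand: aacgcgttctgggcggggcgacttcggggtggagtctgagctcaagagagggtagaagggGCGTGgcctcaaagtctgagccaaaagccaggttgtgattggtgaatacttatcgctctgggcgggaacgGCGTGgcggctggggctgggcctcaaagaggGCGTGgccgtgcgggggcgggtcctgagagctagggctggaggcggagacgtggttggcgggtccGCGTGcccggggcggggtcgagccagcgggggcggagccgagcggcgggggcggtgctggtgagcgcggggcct
Mgst1, chr6:138140277-138140576, plus strand: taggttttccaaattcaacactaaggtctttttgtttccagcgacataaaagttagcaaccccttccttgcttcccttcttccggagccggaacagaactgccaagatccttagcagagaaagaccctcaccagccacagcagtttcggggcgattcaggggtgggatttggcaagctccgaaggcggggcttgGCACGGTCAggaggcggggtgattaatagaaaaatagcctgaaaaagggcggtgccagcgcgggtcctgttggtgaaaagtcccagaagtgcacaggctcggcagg
The core began 76 bases before the start in Cyp1b1, at position 18 after the start in Akr1c14 and at -190, -120, -89 and -24 in Cyp46a1, and the Mgst1 element at -56. A second RefSeq start of Mgst1 had no match. RefSeq gave a promoter for 52 of the 65 members, and 20 of them held GCGTG on either strand, against 35.2% of all 27025 genes with a promoter. TGACNNNGC was found in 5 of the 52, against 14.0% of all genes. The motifs share no letters in the windows shown. A match describes the window and says nothing of binding.

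In Brain, 34 of the 59 members rose in Positive over Input and 16 fell, while 9 did not pass (edgeR's quasi-likelihood test, Benjamini-Hochberg adjusted p under 0.05 over all genes). Over all 13957 genes 38.3% were higher and 39.7% lower, and the counts of each enzyme class in Brain stand beside these shares. The members' median log2 fold change was 0.65, against -0.018 over all genes. Of the 47 members that met the minimum in both fractions, 27 rose and 12 fell. In Brain Positive the members held 0.352 to 0.368% of the listed counts, against 0.258 to 0.283% in Brain Input.

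Among the drug-oxidising P450 enzymes of Brain, Cyp2f2, Cyp1b1 and Cyp2e1 rose and 3 of the 9 members of families 1 to 3 fell. Cyp1b1 (chr17:79706953-79715041), which oxidises estradiol and polycyclic hydrocarbons, had 73.7, 97.8 and 85.9 CPM in Brain Positive, against 4.08, 5.40 and 5.82 CPM in Brain Input. The groups lay far apart, with a log2 fold change of 4.06 ± 0.15 (SE) and an adjusted p of 4.5e-09. Cyp2f2 (chr7:27119955-27133660), known from the naphthalene metabolism of mouse airways, had 38.8, 46.7 and 36.0 CPM in Brain Positive, against 1.03, 1.24 and 0.966 CPM in Brain Input, a log2 fold change of 5.22 ± 0.15 (adjusted p = 1.2e-09). It met the minimum in Positive alone, as did Cyp2e1, which oxidises ethanol and small solvents. Cyp2e1 varied most among these: it had 34.4, 11.6 and 8.44 CPM in Brain Positive, against 2.50, 0.640 and 1.41 CPM in Brain Input, with the highest level of either fraction in number 1. Its log2 fold change was 3.63 ± 0.59 (adjusted p = 0.00027), and 2.78 without Brain Positive 1. Cyp2d22, of the CYP2D drug-metabolising subfamily, had the highest level per kilobase of exon in this class over all groups (15.6 CPM per kilobase). It had 76.6, 80.9 and 72.3 CPM in Brain Positive, against 36.1, 37.0 and 38.5 CPM in Brain Input (log2 fold change 1.04 ± 0.07, adjusted p = 3.5e-07). Cyp2j12 fell by 1.63 ± 0.23 on the log2 scale (adjusted p = 0.0001), with 1.13, 0.748 and 1.12 CPM in Brain Positive against 3.56, 2.95 and 2.78 CPM in Brain Input, and Cyp2j9 fell by 1.11 ± 0.14 (adjusted p = 3.4e-05). Cyp2j12 was listed through Input alone, which favours its decrease. Both belong to the Cyp2j group, known for epoxidising arachidonic acid, whose remaining listed member Cyp2j6 had a log2 fold change of 0.12 (adjusted p = 0.23).

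The family 4 enzymes, which hydroxylate the end of fatty acid chains, split in Brain: 5 of 9 rose and 4 fell. Cyp4a12b had 2.69, 4.31 and 3.45 CPM in Brain Positive, against 0, 0.0915 and 0.135 CPM in Brain Input, where these levels stood on 0, 4 and 6 counts. Its log2 fold change of 5.32 ± 0.44 (adjusted p = 2.1e-06), or 5.92 without Brain Input 3, is uncertain in a further way, since 49.4% of its 50-base words occur in other genes, so that counting can split its reads with a near-identical copy. Cyp4v3, whose human counterpart CYP4V2 is mutated in Bietti crystalline dystrophy, had 31.8, 37.4 and 33.2 CPM in Brain Positive, against 6.75, 8.01 and 8.56 CPM in Brain Input (log2 fold change 2.13 ± 0.11, adjusted p = 8.8e-08). Cyp4a12b met the minimum in Positive alone. The decreases named next, of Cyp4a30b-ps and Cyp4x1, are of members listed through Input alone. In each case the listing favours the way the member moved. Cyp4a30b-ps, named a pseudogene and sharing 18.5% of its words, fell by 1.75 ± 0.27 (adjusted p = 0.00021), with 0.864, 0.902 and 1.52 CPM in Brain Positive against 4.70, 3.50 and 3.03 CPM in Brain Input. Cyp4x1 had 0.964, 1.26 and 1.36 CPM in Brain Positive against 2.95, 3.71 and 3.26 CPM in Brain Input and fell by 1.46 ± 0.21 (adjusted p = 0.00011).

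The sterol, steroid and retinoid P450 enzymes of Brain were even, with 3 of 8 higher, 3 lower and 2 not passing. These counts lie near the shares over all genes, of 38.3% higher and 39.7% lower. Cyp46a1 (chr12:108334381-108362234), the neuronal enzyme that turns brain cholesterol into its exported hydroxylated form, had 66.7, 71.4 and 72.1 CPM in Brain Positive, against 195, 226 and 187 CPM in Brain Input. It fell by 1.53 ± 0.08 on the log2 scale (adjusted p = 9.9e-08), with no overlap. Neuron markers moved the same way: 10 of 10 were lower, at 0.406 to 0.463% of listed counts in Brain Positive against 1.05 to 1.10% in Brain Input, and their part in this result was not tested. Cyp39a1, a hydroxylase of the oxysterol that it makes, moved the other way. Cyp39a1 had 15.0, 13.9 and 10.8 CPM in Brain Positive, against 4.52, 3.02 and 3.01 CPM in Brain Input (log2 fold change 1.92 ± 0.20, adjusted p = 9.3e-06). Cyp26b1, which clears retinoic acid, rose by 1.12 ± 0.19 (adjusted p = 0.00035), and Cyp51, the lanosterol demethylase of cholesterol synthesis, fell by 0.69 ± 0.06 (adjusted p = 2.8e-06).

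The electron donor and the quinone reductase of the module rose in Brain. Por (chr5:135689214-135735325) had 194, 203 and 191 CPM in Brain Positive, against 95.2, 96.1 and 97.6 CPM in Brain Input (log2 fold change 1.03 ± 0.06, adjusted p = 1.8e-07). Nqo1 (chr8:107388225-107403205), a standard NRF2 target, had 22.4, 26.5 and 18.4 CPM in Brain Positive, against 5.31, 5.35 and 6.31 CPM in Brain Input (log2 fold change 1.98 ± 0.15, adjusted p = 1.1e-06).

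Of the 6 aldo-keto reductases of Brain, 4 rose, while Akr1b10 and Akr1e1 had log2 fold changes of 0.01 and -0.06 and did not pass (adjusted p = 0.94 and 0.54). Akr1c14 (chr13:4059591-4090422), a hydroxysteroid dehydrogenase that acts on neurosteroids, had 62.0, 78.6 and 79.9 CPM in Brain Positive, against 1.13, 1.40 and 2.11 CPM in Brain Input. Its log2 fold change of 5.53 ± 0.19 (adjusted p = 3.3e-09) was the largest of the 59 members in Brain. It met the minimum in Positive alone, and its exons overlap the gene Gm18857 over 7.22% of their bases. Akr1a1, the aldehyde reductase, had the highest level per kilobase of the module in Brain Positive, 267 ± 14 CPM per kilobase (SD, n = 3), and rose by 1.11 ± 0.07 (adjusted p = 2.9e-07).

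Each of the 3 epoxide hydrolases behaved differently in Brain. Ephx1 (chr1:180989556-181017495), the microsomal enzyme that opens drug epoxides, had 275, 280.4 and 237 CPM in Brain Positive, against 45.3, 36.4 and 40.1 CPM in Brain Input (log2 fold change 2.70 ± 0.10, adjusted p = 6e-09). Ephx2, the soluble enzyme that hydrolyses fatty acid epoxides, had a log2 fold change of 0.18 (adjusted p = 0.19). Ephx4 had 14.5, 14.4 and 14.7 CPM in Brain Positive, against 38.3, 42.0 and 37.3 CPM in Brain Input, and fell by 1.43 ± 0.08 (adjusted p = 1.5e-07).

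Conjugating enzymes of Brain mostly rose. Of 16 cytosolic or mitochondrial glutathione S-transferases 11 were higher and 2 lower, with a median log2 fold change of 1.09. Gstm2 (chr3:107981702-107986436) had 82.5, 112 and 93.9 CPM in Brain Positive, against 4.39, 3.73 and 3.66 CPM in Brain Input, a log2 fold change of 4.62 ± 0.13 (adjusted p = 1.1e-09). Gsta4 (chr9:78191966-78209349), which conjugates the lipid peroxidation product hydroxynonenal, had 216, 203 and 224 CPM in Brain Positive, against 65.2, 54.8 and 56.9 CPM in Brain Input (log2 fold change 1.86 ± 0.08, adjusted p = 2.2e-08). Gstp1, the class's highest member per kilobase over all groups, rose by 0.31 ± 0.07 (adjusted p = 0.0021), but shares 33.7% of its words with other genes. The microsomal pair split. Mgst1 rose by 1.91 ± 0.16 (adjusted p = 2e-06), whereas Mgst3 had 49.1, 42.0 and 42.4 CPM in Brain Positive, against 89.7, 83.4 and 78.2 CPM in Brain Input, and fell by 0.91 ± 0.08 (adjusted p = 3.9e-06). Of 4 sulfotransferases 2 rose and 2 fell. Sult1a1 (chr7:126672870-126676357), which sulfates phenols, had 64.0, 86.4 and 89.8 CPM in Brain Positive, against 5.90, 7.07 and 8.02 CPM in Brain Input (log2 fold change 3.51 ± 0.15, adjusted p = 1.9e-08). Sult4a1, a neuronal sulfotransferase, was the highest member per kilobase in Brain Input, at 240 ± 7.2 CPM per kilobase (SD, n = 3). It had 302, 265 and 265 CPM in Brain Positive, against 615, 612 and 582 CPM in Brain Input, and fell by 1.12 ± 0.07 (adjusted p = 2.1e-07).

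Markers of cells other than endothelium also differed between the Brain fractions. Fibroblast and meningeal markers were higher in 8 of 8, at 0.224 to 0.296% of listed counts in Brain Positive against 0.015 to 0.016% in Brain Input. Mural markers summed to 0.117 to 0.159% in Brain Positive against 0.019 to 0.0207% in Brain Input, although 5 of their 9 measured genes were lower and 3 higher. Their part in the increases of members was not tested. Alb and 4 further hepatocyte markers were not listed in any table, and the sixth, Ttr, was lower in Positive in the 3 tissues.

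**Figure D1:**
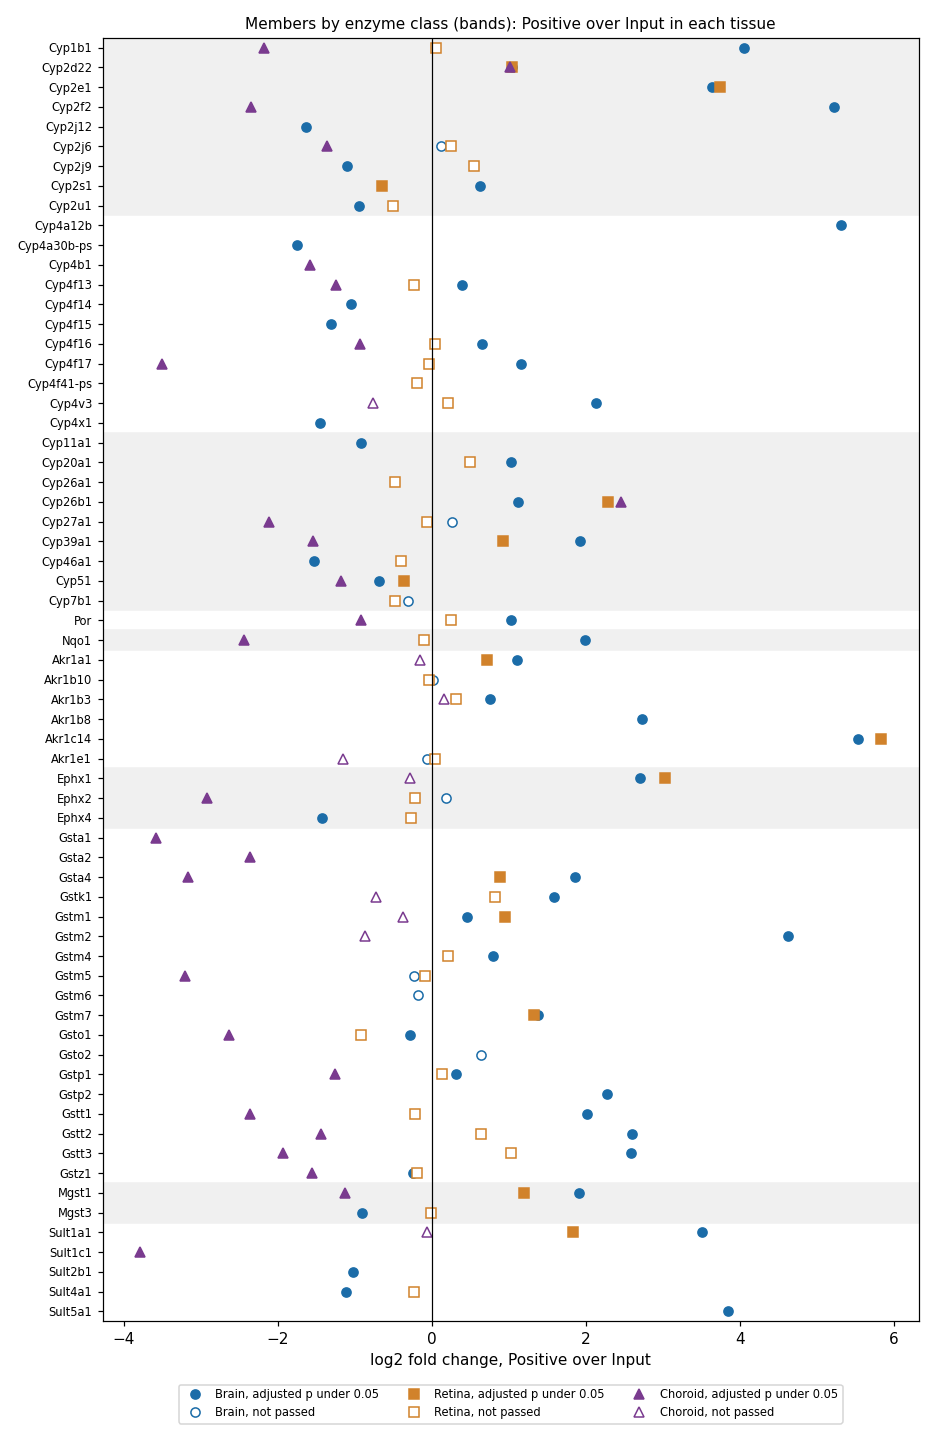
Log2 fold change of Positive over Input (x axis) for each of the 65 members (rows, in bands of enzyme classes from cytochromes P450 at the top to sulfotransferases at the bottom). Circles are Brain, squares Retina and triangles Choroid, and filled symbols passed an adjusted p of 0.05. Of the Brain points 34 lie filled to the right of 0 and of the Choroid points 25 lie filled to the left.

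In Retina, 12 of the 46 members rose in Positive over Input and 2 fell, and 32 did not pass. Over all 12827 genes 15.3% were higher and 10.8% lower. The members' median log2 fold change was 0.088, against -0.034 over all genes. The steroid enzyme Akr1c14 had the largest increase of the 46, followed by Cyp2e1 and Ephx1, while Cyp1b1, Por and Nqo1 did not pass. Leaving out a library moved the number of increases between 8 and 16 and the number of decreases between 0 and 2. With Input and Positive of the same homogenate as a block, 1 member fell.

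Akr1c14 had 5.29, 8.08 and 15.7 CPM in Retina Positive, against 0.0529, 0.0686 and 0.469 CPM in Retina Input. The Input levels stood on 2, 2 and 10 counts, and the log2 fold change was 5.84 ± 0.72 (edgeR, adjusted p = 0.00084), or 7.23 without Retina Input 3. Cyp2e1 had 14.5, 23.4 and 20.2 CPM in Retina Positive, against 1.06, 1.89 and 1.41 CPM in Retina Input (log2 fold change 3.74 ± 0.28, adjusted p = 8.9e-05). Both met the minimum in Positive alone. Ephx1 had 70.4, 60.3 and 116 CPM in Retina Positive, against 12.9, 8.51 and 8.86 CPM in Retina Input (log2 fold change 3.02 ± 0.28, adjusted p = 0.0002). Cyp26b1 had 10.4, 20.5 and 25.5 CPM in Retina Positive, against 4.02, 3.09 and 4.46 CPM in Retina Input (log2 fold change 2.29 ± 0.33, adjusted p = 0.0018). These groups did not overlap. Sult1a1 had 5.20, 7.16 and 19.7 CPM in Retina Positive, against 3.55, 2.95 and 2.53 CPM in Retina Input. Retina Positive 3 stood above the others, as it did for the endothelial markers (0.496% of its counts), and the log2 fold change of 1.83 ± 0.48 (adjusted p = 0.025) was 1.02 without it. The call was lost without Retina Input 1, 2 or 3 (adjusted p = 0.065, 0.094 and 0.094).

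The other increases were those of Cyp2d22, Cyp39a1, Akr1a1, Gsta4, Gstm1, Gstm7 and Mgst1, with log2 fold changes between 0.71 and 1.32. Akr1a1, Gstm1, Gstm7 and Mgst1 kept an adjusted p under 0.05 whichever library was left out. Cyp2d22 lost it without Retina Input 1, 2 or 3 (adjusted p = 0.055, 0.11 and 0.10), and Gsta4 without Retina Input 2 or 3 (0.092 and 0.070). Cyp39a1 lost it without Retina Positive 3 or any Retina Input (0.061 to 0.11), and with the homogenate as a block (0.059).

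The members that fell in Retina were Cyp51 and Cyp2s1. Cyp51 had 73.03, 66.8 and 63.9 CPM in Retina Positive, against 85.3, 92.2 and 85.1 CPM in Retina Input, a decrease of 0.37 ± 0.08 (adjusted p = 0.014). Without Retina Input 1 or 2 its adjusted p was 0.051 and 0.079. Cyp2s1 had 5.47, 4.46 and 5.77 CPM in Retina Positive, against 7.39, 7.85 and 9.61 CPM in Retina Input, and fell by 0.65 ± 0.20 (adjusted p = 0.042). It did not pass with the block (0.056), nor without Retina Input 1, 2 or 3 or Retina Positive 1 or 2 (0.079 to 0.13).

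Cyp1b1 did not pass between the Retina fractions, with 11.8, 9.93 and 16.2 CPM in Retina Positive, against 12.4, 11.5 and 13.1 CPM in Retina Input (log2 fold change 0.05 ± 0.19, adjusted p = 0.88). Nqo1 was low in both fractions: it had 2.74, 1.60 and 4.18 CPM in Retina Positive, against 3.04, 3.26 and 3.10 CPM in Retina Input (log2 fold change -0.10 ± 0.33, adjusted p = 0.85). Without Retina Positive 2, its lowest library, the value was 0.15 (adjusted p = 0.72). Por had 108, 90.6 and 115 CPM in Retina Positive, against 94.3, 84.6 and 85.5 CPM in Retina Input (log2 fold change 0.25 ± 0.10, adjusted p = 0.12). The Por call appeared without Retina Positive 2 (0.34, adjusted p = 0.033). Gsto1, the omega-class transferase, was uneven, at 37.5, 17.1 and 34.8 CPM in Retina Positive, against 98.6, 17.6 and 53.8 CPM in Retina Input. Photoreceptor markers, which define the tissue, held 3.35 to 5.55% of listed counts in Retina Positive and 4.20 to 5.05% in Retina Input, with 3 of 10 lower in Positive. Fibroblast and meningeal markers held 0.0138 to 0.0224% in Retina Positive against 0.00153 to 0.00183% in Retina Input, with 1 of 3 higher and 1 lower. Of the neuron markers 5 of 10 were lower, and of the microglia and macrophage markers 6 of 7, at 0.00323 to 0.00354% in Retina Positive against 0.00622 to 0.00713% in Retina Input. Their part in the members' changes was not tested.

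In Choroid the balance was the other way, with 25 of the 36 members lower in Positive, 2 higher and 9 not passing. Over all 7569 genes 20.2% were lower and 16.3% higher. The members' median log2 fold change was -1.40, against -0.013 over all genes, and they held 0.197 to 0.258% of the listed counts in Choroid Positive against 0.437 to 0.458% in Choroid Input. Of the 25 decreases, 24 were of members listed through Choroid Input alone, which favours a lower value in Positive. In all, 30 of the 36 members were listed that way, as were 4439 of the 7569 genes. The shares over all genes therefore carry this lean too. Among the 6 members that met the minimum in both fractions, Cyp26b1 and Cyp2d22 rose, Gstp1 fell, and Akr1a1, Ephx1 and Gstm1 did not pass.

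Cyp26b1 (chr6:84571414-84593908) had 338, 178 and 191 CPM in Choroid Positive, against 61.3, 25.5 and 42.0 CPM in Choroid Input, without overlap. Its log2 fold change was 2.45 ± 0.34 (adjusted p = 0.00015). Cyp2d22 had 143, 82.7 and 124 CPM in Choroid Positive, against 66.3, 51.0 and 58.1 CPM in Choroid Input (log2 fold change 1.01 ± 0.26, adjusted p = 0.0085). Both calls held whichever library was left out.

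Oxidising and reducing enzymes made up many of the decreases. Cyp4f17 had 8.78, 3.18 and 8.12 CPM in Choroid Positive, against 70.4, 84.9 and 99.4 CPM in Choroid Input, and fell by 3.50 ± 0.36 on the log2 scale (adjusted p = 1.8e-05). Nqo1 had 38.4, 19.1 and 15.7 CPM in Choroid Positive, against 115, 142 and 159 CPM in Choroid Input, and fell by 2.44 ± 0.34 (adjusted p = 0.00014), or by 3.03 without Choroid Positive 1. Por, the electron donor, also fell. It had 87.04, 49.3 and 91.6 CPM in Choroid Positive, against 167, 123 and 150.2 CPM in Choroid Input (log2 fold change -0.92 ± 0.26, adjusted p = 0.016), and lost the call without Choroid Input 1 or 3 (0.063 and 0.058). Cyp1b1 had 20.8, 6.36 and 18.6 CPM in Choroid Positive, against 93.7, 29.4 and 101 CPM in Choroid Input, a decrease of 2.18 ± 0.49 (adjusted p = 0.0038). Number 2 was the lowest in both fractions. Ephx2 had 4.39, 0 and 7.54 CPM in Choroid Positive, from 12, 0 and 13 counts, against 42.7, 30.9 and 34.0 CPM in Choroid Input, and fell by 2.92 ± 0.56 (adjusted p = 0.0015).

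Sult1c1 and Gsta1, both conjugating enzymes, held the largest decreases of the 36 members in Choroid. Sult1c1 (chr17:53961615-53990631), listed in Choroid alone, had 18.3, 14.3 and 9.86 CPM in Choroid Positive, against 94.5, 281 and 225 CPM in Choroid Input, and fell by 3.79 ± 0.43 (adjusted p = 3.2e-05). Of 13 cytosolic or mitochondrial glutathione S-transferases 10 fell, against 20.2% of all genes, with a median log2 fold change of -1.93. All but Gstp1, which fell, and Gstm1, which did not pass, were listed through Choroid Input alone, which favours a lower value in Positive. Gsta4, the highest of the 13 per kilobase in Choroid Input (334 ± 32 CPM per kilobase, SD, n = 3), had 62.5, 27.0 and 44.6 CPM in Choroid Positive, against 391, 468 and 411 CPM in Choroid Input. It fell by 3.17 ± 0.27 (adjusted p = 6.1e-06). Gsta1 had 5.49, 6.36 and 4.64 CPM in Choroid Positive, against 42.2, 90.3 and 62.5 CPM in Choroid Input, and fell by 3.59 ± 0.42 (adjusted p = 4.4e-05), but 90.5% of its words occur in other genes, so its reads cannot be assigned to it with certainty. Gstm5 had 13.9, 6.36 and 2.32 CPM in Choroid Positive, against 77.8, 90.3 and 61.0 CPM in Choroid Input, and fell by 3.21 ± 0.48 (adjusted p = 0.00026), or by 4.40 without Choroid Positive 1. By contrast Ephx1 was high in both fractions, at 269.9, 221 and 229.6 CPM in Choroid Positive and 302, 267 and 308 CPM in Choroid Input, and its log2 fold change of -0.28 ± 0.19 did not pass (adjusted p = 0.27). Sult1a1 likewise did not pass (-0.06 ± 0.32, adjusted p = 0.90).

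Of the 25 decreases, 10 lost the call when 1 library was left out, and the count then ran from 19 to 27. Cells beside the vessels differed strongly between these fractions: 9 of 9 measured markers of the retinal pigment epithelium were lower, at 0.127 to 0.196% of listed counts in Choroid Positive against 1.87 to 2.51% in Choroid Input, and 5 of 5 melanocyte markers were lower, at 0.0457 to 0.155% in Choroid Positive against 0.426 to 0.872% in Choroid Input. Fibroblast markers held 0.173 to 0.218% in Choroid Positive against 0.390 to 0.489% in Choroid Input. Their part in the members' decreases was not tested.

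**Figure D2:**
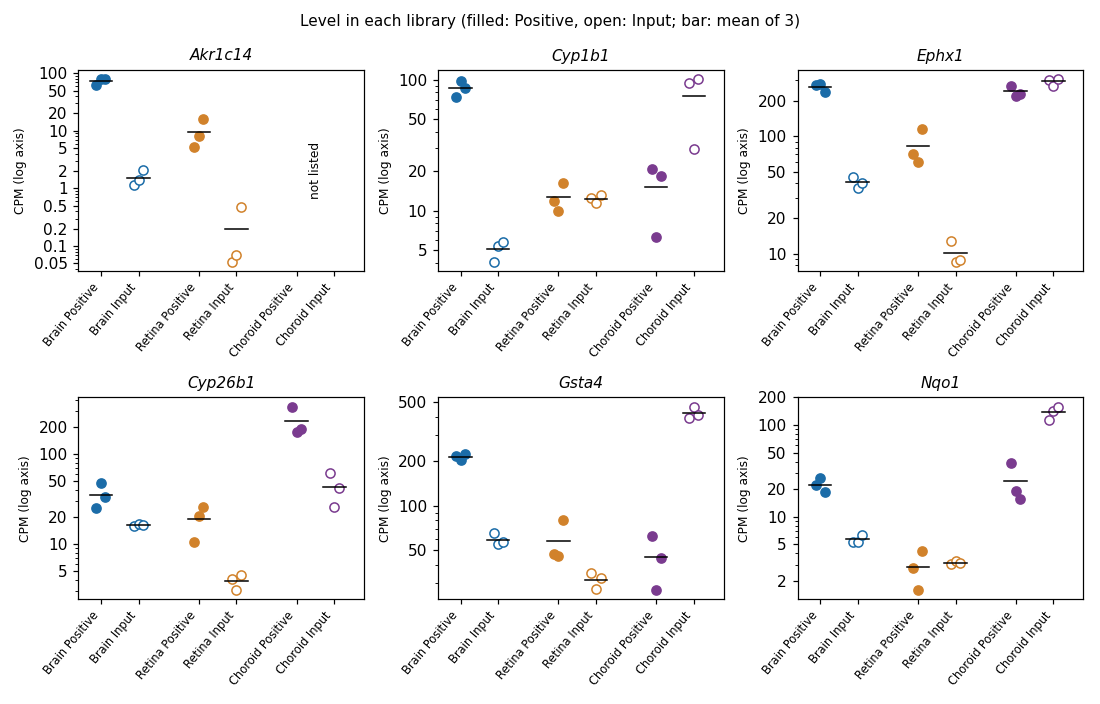
Level of 6 members in every library, in CPM on a log axis, for Brain, Retina and Choroid, with Positive (filled) left of Input (open) and a bar at the mean of 3 libraries. Cyp1b1 is at 73.7 to 97.8 CPM in Brain Positive, above Brain Input, and at 6.36 to 20.8 CPM in Choroid Positive, below Choroid Input; Cyp26b1 is above Input in the 3 tissues.

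Across the 3 tissues, Cyp26b1 and Cyp2d22 rose in each and Cyp51 fell in each, whereas 10 members were higher in Brain, did not pass in Retina and were lower in Choroid: Cyp1b1, Cyp4f13, Cyp4f16, Cyp4f17, Gstp1, Gstt1, Gstt2, Gstt3, Nqo1 and Por. All but Gstp1 were listed in Choroid through Input alone, which favours their lower value there, and Nqo1 and Gstt3 also in Retina. Gsta4, Mgst1 and Cyp39a1, listed in Choroid the same way, were higher in Brain and Retina and lower in Choroid. Akr1e1, a reductase of anhydrofructose, was listed in all 3 tables and passed in none; its log2 fold change was -1.16 in Choroid (adjusted p = 0.056, or 0.031 with the homogenate as a block). In Choroid the calls of Cyp51 (without Choroid Input 2 or 3 or Choroid Positive 3, adjusted p between 0.069 and 0.089), Cyp39a1, Cyp4f13, Cyp4f16, Mgst1 and Por were each lost when some libraries were left out, at adjusted p up to 0.15, and that of Gstt2 without Choroid Input 2 (0.051). Cyp4f16 also lost it with the homogenate as a block (0.074).

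The difference between tissues was then tested itself, as the interaction of tissue and fraction. Between Retina and Brain, Positive over Input was greater in Retina for 8 of 44 members and smaller for 15. Over all 12438 genes 28.9% were greater and 20.0% smaller in Retina. Cyp1b1 had the largest difference, -3.96 ± 0.26 on the log2 scale (adjusted p = 5.4e-07). Its log2 fold change was 4.06 in Brain and 0.05 in Retina. Gstt1 (-2.18 ± 0.34, adjusted p = 0.00028), Nqo1 (-2.02 ± 0.35, adjusted p = 0.00049) and Gstt2 (-1.91 ± 0.24, adjusted p = 5.6e-05) followed, and Por differed by -0.74 ± 0.12 (adjusted p = 0.00036). Of the members greater in Retina, Cyp2j9, Ephx4 and Cyp46a1 had fallen in Brain. Cyp2j9 differed by 1.69 ± 0.27 (adjusted p = 0.00031), Ephx4 by 1.20 ± 0.14 (adjusted p = 3e-05) and Cyp46a1 by 1.16 ± 0.14 (adjusted p = 4.4e-05). Cyp26b1, which rose in both, differed by 1.21 ± 0.42 (adjusted p = 0.031), a call lost without any 1 of Brain Input 1, 2 or 3, Brain Positive 1 or 3, Retina Input 2 or Retina Positive 2 (adjusted p between 0.052 and 0.079). Neither Akr1c14 (0.40 ± 0.86) nor Ephx1 (0.36 ± 0.31) nor Cyp2e1 (0.17 ± 0.77) was found to differ between Retina and Brain (adjusted p = 0.72, 0.36 and 0.87), and for Akr1c14 and Cyp2e1 the SE leaves room for large differences. The count of greater members was 5 without Brain Input 2.

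Between Choroid and Brain, Positive over Input was smaller in Choroid for 26 of 32 members and greater for 1. Over all 7461 genes 25.7% were smaller and 22.4% greater. Cyp2f2 differed by -7.36 ± 0.72 (adjusted p = 1.7e-06): it had 8.05, 23.9 and 1.74 CPM in Choroid Positive against 74.8, 39.3 and 25.8 CPM in Choroid Input, a decrease of 2.35 ± 0.68 (adjusted p = 0.017). That call was lost without Choroid Input 1, Choroid Positive 1 or Choroid Positive 3 (0.12, 0.062 and 0.055; log2 fold change -1.76, -2.25 and -1.76), and the value was -3.12 without Choroid Positive 2. Without Choroid Positive 2, where Cyp2f2 was highest, the difference was -8.10. Cyp1b1 (-5.90 ± 0.55, adjusted p = 1.2e-06), Gstm2 (-5.19 ± 0.28, adjusted p = 8.3e-09) and Gsta4 (-4.68 ± 0.26, adjusted p = 1.3e-08) came next. The exception was Cyp26b1, greater in Choroid by 1.64 ± 0.43 (adjusted p = 0.006). Of the 32 members, 26 were listed in Choroid through Input alone, which favours a low value there, and 23 of the 26 decreases are theirs, those of Cyp2f2, Cyp1b1, Gstm2 and Gsta4 included. Cyp2f2 was also listed in Brain through Positive alone. Of the 6 members that met the minimum in both fractions of both tissues, Cyp26b1 was greater in Choroid, Ephx1 (-2.66 ± 0.19, adjusted p = 1.1e-07), Gstp1 (-1.26 ± 0.23, adjusted p = 0.00049) and Akr1a1 (-0.95 ± 0.17, adjusted p = 0.00042) were smaller, and 2 did not pass. The scaling bears on this comparison. With the authors' own factors the median of all genes moved by -0.453 and the split over all genes from 1670 greater and 1921 smaller to 686 greater and 2846 smaller. The 4 decreases named above are each larger than that shift.

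Between Choroid and Retina, 22 of 30 members had a smaller Positive over Input in Choroid, against 22.3% of all 7313 genes, and 0 a greater one, against 9.49%. In edgeR 0 of the 2 positive differences had an unadjusted p under 0.05, and the DESeq2 Wald test called 0. Gsta4 differed by -3.94 ± 0.35 (adjusted p = 4.6e-06), Cyp4f17 by -3.38 ± 0.41 (adjusted p = 4e-05) and Ephx1 by -3.21 ± 0.33 (adjusted p = 1.2e-05). Gstm5 differed by -2.99 ± 0.47 (adjusted p = 0.00029), or -4.27 without Choroid Positive 1. The differences of Cyp26b1 (0.25 ± 0.50, adjusted p = 0.75) and Cyp2d22 (0.08 ± 0.38, adjusted p = 0.91) did not pass. Gsta4, Cyp4f17 and Gstm5 were listed in Choroid through Input alone, as were 24 of the 30 members and 18 of the 22 that were smaller. Of the 6 that met the minimum in both fractions of both tissues, Ephx1, Gstp1 (-1.31 ± 0.26, adjusted p = 0.0014), Gstm1 (-1.24 ± 0.35, adjusted p = 0.016) and Akr1a1 (-0.79 ± 0.19, adjusted p = 0.0055) were smaller in Choroid. The authors' factors moved the median of all genes by -0.161 here, and the split from 694 greater and 1628 smaller to 381 and 1804.

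The Positive fractions were also set against each other, which asks what the pull-downs themselves carried. These are raw values of tables that were filtered separately, scaled together. Retina Positive was lower than Brain Positive for 33 of 44 members and higher for 4. Over all 12438 genes 34.1% were lower and 36.1% higher. Of the 37 members that met the minimum in both fractions of both tissues, 27 were lower and 4 higher. The 5 listed in Retina through Input alone, Nqo1 included, were all lower. Gstm1 had 27.5, 26.0 and 39.8 CPM in Retina Positive, against 299, 319 and 316 CPM in Brain Positive, a log2 difference of -3.32 ± 0.17 (adjusted p = 2.8e-06). Nqo1 had 2.84, 1.67 and 4.21 CPM in Retina Positive, against 22.4, 26.6 and 18.5 CPM in Brain Positive (-2.89 ± 0.29, adjusted p = 6.9e-05). Akr1c14, whose rise over Input was not found to differ between these tissues, had 5.49, 8.42 and 15.8 CPM in Retina Positive, against 61.9, 78.7 and 80.1 CPM in Brain Positive (-2.87 ± 0.34, adjusted p = 0.00016, or -3.46 without Retina Positive 3). Sult1a1 differed by -2.84 ± 0.44 (adjusted p = 0.00062), or -3.68 without Retina Positive 3. Higher in Retina Positive were Akr1e1 (1.18 ± 0.15, adjusted p = 0.00021), with 50.8, 61.1 and 41.1 CPM in Retina Positive against 22.2, 21.4 and 23.8 CPM in Brain Positive, and Cyp2u1 (1.07 ± 0.29, adjusted p = 0.012). Cyp4f17 (0.61 ± 0.22) and Ephx2 (0.35 ± 0.13) passed at adjusted p = 0.035 each, and not without Brain Positive 1 or 3 or Retina Positive 1 (adjusted p between 0.082 and 0.13), so the count was 2 without Brain Positive 3 or Retina Positive 1.

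Choroid Positive was lower than Brain Positive for 13 of 32 members and higher for 3. Over all 7461 genes 24.0% were lower and 25.8% higher. Of the 32 members, 26 were listed in Choroid through Input alone, which favours a low value in Choroid Positive. They held 12 of the 13 decreases, those of Gstm5, Cyp1b1, Ephx2 and Cyp2f2 included, and Cyp2f2 was listed in Brain through Positive alone. Of the 6 that met the minimum in both fractions of both tissues, 2 were higher, 1 was lower and 3 did not pass. Cyp26b1 stood out on the high side, with 353, 190.1 and 203 CPM in Choroid Positive, against 26.0, 48.6 and 34.5 CPM in Brain Positive (2.79 ± 0.31, adjusted p = 0.00019). The other increases, of Cyp4f16 (0.73 ± 0.23, adjusted p = 0.031) and Cyp2d22 (0.69 ± 0.18, adjusted p = 0.015), were lost without any 1 of the Brain Positive libraries (adjusted p between 0.056 and 0.13), and for Cyp4f16 also without Choroid Positive 3 and for Cyp2d22 without Choroid Positive 1. The count was then 1. On the low side, Gstm5 had 14.5, 6.79 and 2.46 CPM in Choroid Positive, against 115, 116 and 105 CPM in Brain Positive (-3.63 ± 0.40, adjusted p = 0.00017, or -4.97 without Choroid Positive 1). Cyp1b1 had 21.8, 6.79 and 19.7 CPM in Choroid Positive, against 75.8, 99.9 and 88.8 CPM in Brain Positive (-2.28 ± 0.28, adjusted p = 0.00033). Ephx2 differed by -2.20 ± 0.45 (adjusted p = 0.0046). Cyp2f2 differed by -2.21 ± 0.56 (adjusted p = 0.012), and lost the call without Brain Positive 1 or 2 (0.051 and 0.059); without Choroid Positive 2 it differed by -2.86. Ephx1 (-0.09 ± 0.13), Akr1a1 (-0.07 ± 0.11) and Nqo1 (0.24 ± 0.34) did not pass between these fractions (adjusted p = 0.59, 0.60 and 0.59), although Positive over Input of each was smaller in Choroid than in Brain.

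Choroid Positive was higher than Retina Positive for 14 of 30 members and lower for 5. Over all 7312 genes 27.3% were higher and 25.6% lower. Of the 30 members, 24 were listed in Choroid through Input alone, which favours a low value in Choroid Positive. They held all 5 decreases and 8 of the increases. The 6 that met the minimum in both fractions of both tissues were all higher. Of these, Akr1a1 lost the call without Retina Positive 1 or 2. Cyp2d22 lost it without Choroid Positive 1 or 3 or Retina Positive 1 or 2. Gstp1 lost it without Choroid Positive 1 or 2 or any 1 of the Retina Positive libraries. Akr1a1, Cyp2d22 and Gstp1 did not reach an adjusted p under 0.01 in edgeR. Cyp26b1 again led, with 346, 186 and 199 CPM in Choroid Positive, against 11.6, 22.4 and 27.2 CPM in Retina Positive (3.59 ± 0.37, adjusted p = 6.7e-05). Nqo1 had 39.3, 20.0 and 16.3 CPM in Choroid Positive, against 3.05, 1.74 and 4.45 CPM in Retina Positive (3.05 ± 0.49, adjusted p = 0.00083). Gstm1 differed by 2.08 ± 0.25 (adjusted p = 0.00016) and Sult1a1 by 1.88 ± 0.48 (adjusted p = 0.0091, or 2.64 without Retina Positive 3). Ephx2 was lower in Choroid Positive by 2.63 ± 0.48 on the log2 scale (log2 difference -2.63, adjusted p = 0.0017), and Gstm5 had a difference of -2.40 ± 0.46 (adjusted p = 0.0022), or -3.63 without Choroid Positive 1. Cyp51 had 35.6, 23.3 and 21.7 CPM in Choroid Positive, against 81.4, 72.8 and 68.0 CPM in Retina Positive (-1.42 ± 0.25, adjusted p = 0.0013). Akr1e1 differed by -1.28 ± 0.39 (adjusted p = 0.021), a call lost without Choroid Positive 1 or 3 or Retina Positive 1 or 2 (0.057 to 0.086). Without Retina Positive 1 or 2 the count of higher members was 7, and without Choroid Positive 1 or 3 or Retina Positive 1 or 2 that of lower members was 3. Every Positive fraction enters 2 of these comparisons, so they are not independent of each other.

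**Figure D3:**
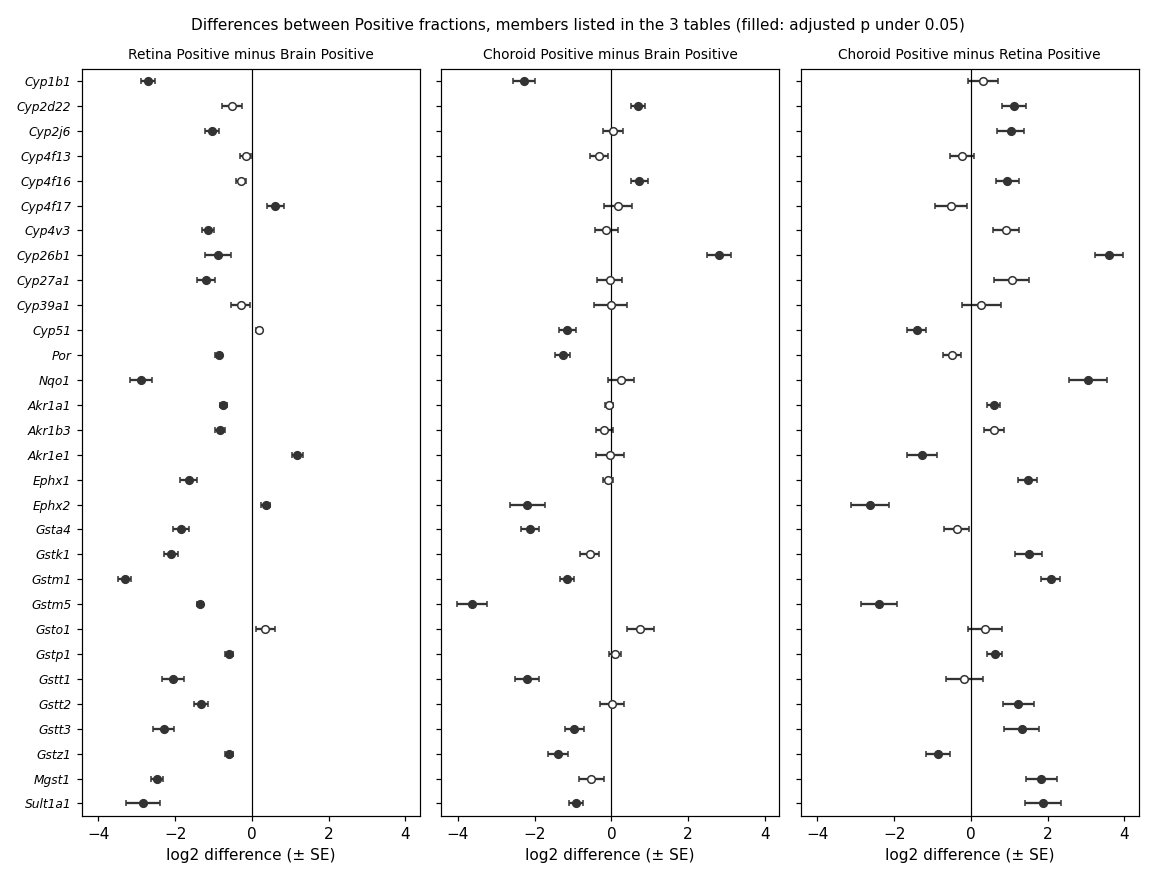
Log2 difference ± SE between Positive fractions (x axis) for the 30 members listed in the 3 tables (rows), for Retina minus Brain, Choroid minus Brain and Choroid minus Retina from left to right. Filled points passed an adjusted p of 0.05; Cyp26b1 lies at 2.79 and 3.59 in both Choroid panels and Nqo1 at -2.89, 0.24 and 3.05.

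Members that neighbour each other on a chromosome were compared. The theta-class genes Gstt3, Gstt1 and Gstt2 lie within 60.8 kilobases (chr10:75774122-75834881) and had log2 fold changes of 2.02 to 2.59 in Brain, -0.22 to 1.02 in Retina and -2.37 to -1.44 in Choroid. Gstt1 had 55.0, 63.7 and 47.7 CPM in Brain Positive, against 15.6, 13.4 and 12.3 CPM in Brain Input, and 13.9, 17.5 and 6.38 CPM in Choroid Positive, against 54.0, 59.4 and 71.8 CPM in Choroid Input. These theta-class genes were listed in Choroid through Input alone, which favours a low value there. In Retina Gstt3, Gstt1 and Gstt2 did not pass (adjusted p = 0.062, 0.63 and 0.075), but Gstt3 did with the homogenate as a block (adjusted p = 0.042). The 6 mu-class genes lie within 149 kilobases (chr3:107895854-108044859) and ranged in Brain from -0.23 for Gstm5 to 4.62 for Gstm2. Gstm5 did not pass (adjusted p = 0.053) unless the homogenate was a block (0.022). Next to Gstm5, Gstm7 had 60.4, 65.2 and 60.0 CPM in Brain Positive against 25.6, 24.5 and 21.2 CPM in Brain Input, whereas Gstm6 had 6.65, 3.20 and 6.68 CPM in Brain Positive, overlapping 7.92, 4.09 and 6.80 CPM in Brain Input. Mu-class genes are similar in sequence: Gstm1 shares 18.9% of its words with other genes, so a part of these reads can be split. Of the 6 Cyp4f genes within 459 kilobases (chr17:32506462-32965716), Cyp4f17, Cyp4f16 and Cyp4f13 rose in Brain (1.16, 0.65 and 0.39) and Cyp4f15 and Cyp4f14, which lie between them, fell by 1.32 and 1.05.

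**Figure D4:**
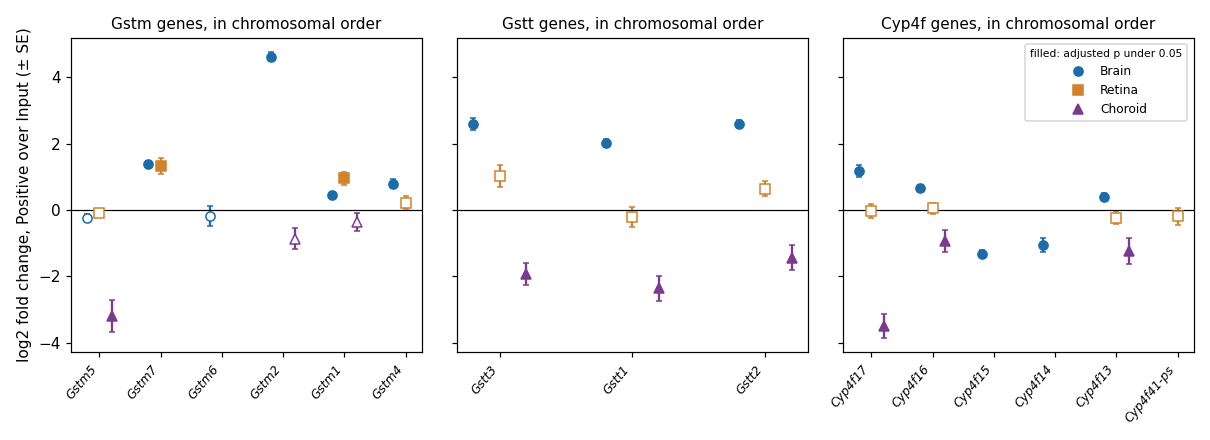
Log2 fold change ± SE of Positive over Input (y axis) for neighbouring Gstm, Gstt and Cyp4f members, in chromosomal order from left to right. Circles are Brain, squares Retina and triangles Choroid, and filled symbols passed an adjusted p of 0.05; the 3 Gstt genes are at 2.02 to 2.59 in Brain and -2.37 to -1.44 in Choroid.

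Genes that work with the module but are not members were followed in 8 lists. Their counts stand beside the shares over all genes, of 38.3% higher and 39.7% lower in Brain, 15.3% and 10.8% in Retina, and 16.3% and 20.2% in Choroid, and several lie near these. The electron partners and heme enzymes rose in Brain in 11 of 14 (1 lower, median log2 fold change 1.06), in Retina in 5 of 14 (median 0.33) and in Choroid in 1 of 12 (median -0.20). Cyb5r3, the cytochrome b5 reductase, was the largest of each tissue: it averaged 362 ± 19 CPM in Brain Positive and 98.5 ± 4.7 CPM in Brain Input, 141 ± 47 CPM in Retina Positive and 58.4 ± 0.52 CPM in Retina Input, and 797 ± 68 CPM in Choroid Positive and 322 ± 57 CPM in Choroid Input (SD, n = 3 each; log2 fold changes 1.88, 1.28 and 1.31). It rose in Choroid, where Por fell.

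Regulators of the module were measured too. In the NRF2 and glutathione list 10 of 16 genes rose in Brain and 2 fell, 5 of 15 rose in Retina and 1 fell, and 2 of 13 rose in Choroid. Nfe2l2, which encodes NRF2, averaged 91.1 ± 4.2 CPM in Brain Positive and 12.1 ± 0.68 CPM in Brain Input (log2 fold change 2.91, adjusted p = 6.2e-10), and rose by 0.93 in Retina (adjusted p = 0.0099) and 0.88 in Choroid (adjusted p = 0.0049). Slc7a11, the cystine importer, rose by 2.92 in Brain (adjusted p = 4.5e-09). In the aryl hydrocarbon receptor list 2 of 7 genes rose and 2 fell in Brain, 2 of 8 fell in Retina, and 2 of 4 rose and 1 fell in Choroid. Ahr, the receptor, averaged 30.3 ± 3.7 CPM in Retina Positive and 46.6 ± 0.86 CPM in Retina Input (log2 fold change -0.63, adjusted p = 0.0042), and its repressor Ahrr fell by 0.59 there (adjusted p = 0.011). Of the nuclear receptors 12 of 14 rose in Brain and 2 fell, 3 of 14 rose in Retina and 1 fell, and 6 of 9 rose in Choroid and 1 fell. Rarg, a retinoic acid receptor, rose in each tissue, by 2.94, 1.82 and 1.97 in Brain, Retina and Choroid (adjusted p = 5e-10, 0.0012 and 1.8e-05). The drug-sensing receptors Nr1i2 (PXR) and Nr1i3 (CAR) were listed in no table.

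Enzymes outside the symbol rule were counted too. Of the other oxidising, reducing and hydrolysing enzymes 21 of 24 rose and 1 fell in Brain (median 1.75), 9 of 16 rose in Retina and 4 of 16 rose and 7 fell in Choroid. Xdh, xanthine dehydrogenase, averaged 162 ± 22 CPM in Brain Positive and 5.17 ± 1.1 CPM in Brain Input (log2 fold change 4.95, adjusted p = 1.8e-09), and 75.6 ± 50 CPM in Retina Positive and 1.21 ± 0.13 CPM in Retina Input (5.97, adjusted p = 0.00016). A single count was worth 0.0469 CPM in Retina Input 3, so Xdh lay under the minimum of 50 counts there. Xdh was thus listed in Retina through Positive alone, which favours its rise. Ces2e, a carboxylesterase, rose by 2.59 in Choroid (adjusted p = 3.4e-05). The other conjugating enzymes were mixed, with 6 of 13 higher and 2 lower in Brain, 1 of 10 higher in Retina, and 1 of 9 higher and 4 lower in Choroid. Papss2, which makes the sulfate donor of the sulfotransferases, averaged 115 ± 37 CPM in Choroid Positive and 11.9 ± 1.8 CPM in Choroid Input (log2 fold change 3.22, adjusted p = 1.4e-05). A single count was worth 0.491 CPM in Choroid Input 2, so Papss2 lay under the minimum of 50 counts there. Papss2 was thus listed in Choroid through Positive alone, which favours its rise. Other steroid enzymes and carriers rose in 7 of 13 and fell in 4 in Brain, rose in 5 of 11 and fell in 1 in Retina, and rose in 1 of 10 and fell in 2 in Choroid. Tspo, the translocator protein of cholesterol transport, rose by 3.97 in Brain (adjusted p = 2e-08) and 3.01 in Retina (adjusted p = 0.00014).

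The eicosanoid list held the P450 enzymes that the symbol rule missed. It rose in 9 of 16 and fell in 5 in Brain, split 3 and 3 of 9 in Retina, and rose in 1 of 9 and fell in 7 in Choroid. Ptgis, the prostacyclin synthase, averaged 78.4 ± 9.2 CPM in Brain Positive and 4.03 ± 0.71 CPM in Brain Input (log2 fold change 4.30, adjusted p = 2.3e-09), and 22.9 ± 7.2 CPM in Retina Positive and 4.55 ± 0.72 CPM in Retina Input (2.34, adjusted p = 0.00037). Hpgd, which inactivates prostaglandins, averaged 1.23 ± 0.75 CPM in Choroid Positive and 39.0 ± 15 CPM in Choroid Input and fell by 5.20 on the log2 scale (adjusted p = 7.7e-05). A single count was worth 0.366, 1.59 and 0.580 CPM in Choroid Positive 1, 2 and 3, so the Hpgd level there stood on few counts. Hpgd was thus listed in Choroid through Input alone, which favours its decrease. Ptges, a prostaglandin E synthase, rose by 3.56 in Brain (adjusted p = 1e-08) and fell by 3.21 in Choroid (adjusted p = 4.4e-06).

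**Figure D5:**
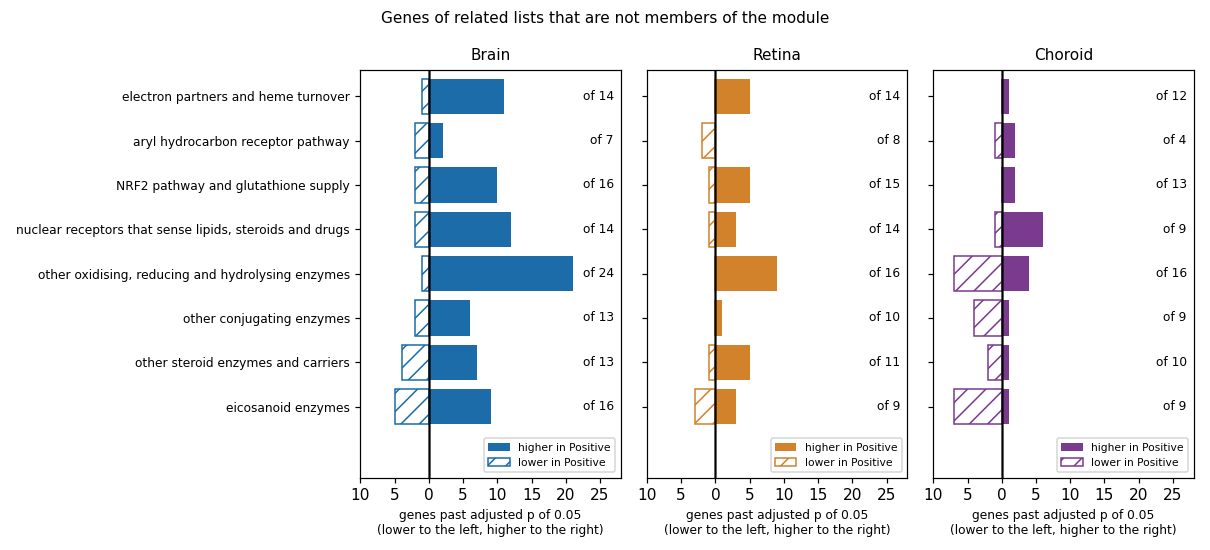
Number of genes past an adjusted p of 0.05 in 8 lists of related genes that are not members (rows), higher in Positive to the right and lower to the left, in Brain, Retina and Choroid, with the number measured at the right of each panel. In Brain 21 of 24 other oxidising, reducing and hydrolysing enzymes were higher; in Choroid 7 of 9 eicosanoid enzymes were lower.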

How the data were processed

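RNA-seq libraries of Positive and Input fractions from 3 tissues were analysed from 1 deposited table per tissue. The tables hold the authors' expected counts per gene beside their normalized counts and log2 fold changes, per the file headers; genes below a raw value of 50 in a library of each fraction are not listed. The submitters' processing notes name DESeq and mm10; the sources used here do not give the aligner, the counter or the use of strand. Raw values were rounded and fitted with edgeR 4.0.16 in R 4.3.3 (scaled by TMM, filtered by filterByExpr at a minimum count of 10, quasi-likelihood test, Benjamini-Hochberg adjustment over all genes, threshold 0.05). SE is the log2 fold change divided by the square root of F. Tissues were joined on shared genes for the interaction and Positive comparisons. The fits were tested on simulated data with 200 changed genes.

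Members and lists were chosen with earlier results of these data known. Library values are given for the 5 largest changes per direction and tissue without overlap, the 4 largest differences between tissues, Por and Nqo1. Further members with library values, such as Cyp4v3 in Brain and Gsto1 in Retina, were not chosen by this rule. By protocol, Input and Positive of 1 number share a homogenate, and in 8 of 9 pairs their deviations from the group means correlated above 0.1 (0.0014 to 0.281). Alternatives were DESeq2 1.42.0 size factors and its Wald test, no filter, genes at or above the median level, an adjusted p under 0.01, the replicate block, leaving out each library and, chosen after seeing the data, the authors' factors. Gene positions are those deposited by the authors, and promoters are from RefSeq. Exon lengths, exon overlaps and the shared sequence, counted in 50-base words, are from GENCODE M21.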

Additional observations from a re-analysis of the deposited data

Results flagged for a closer look

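The difference between tissues in Positive over Input passed the interaction test (edgeR, adjusted p under 0.05) for 17 named results. Between Retina and Brain these were, on the log2 scale, Cyp2j9 (1.69), Cyp26b1 (1.21), Ephx4 (1.20) and Cyp46a1 (1.16), greater in Retina, and Cyp1b1 (-3.96), Gstt1 (-2.18), Nqo1 (-2.02) and Gstt2 (-1.91), smaller in Retina. Between Choroid and Brain, Cyp26b1 was greater in Choroid (1.64), and Cyp2f2 (-7.36), Cyp1b1 (-5.90), Gstm2 (-5.19) and Gsta4 (-4.68) were smaller. Between Choroid and Retina, Gsta4 (-3.94), Cyp4f17 (-3.38), Ephx1 (-3.21) and Gstm5 (-2.99) were smaller in Choroid. Apart from Ephx1, the members named as smaller in Choroid were listed there through Input alone, which favours a low value. Cyp2f2 was also listed in Brain through Positive alone, and Nqo1 was listed in Retina through Input alone. The difference of Cyp26b1 between Retina and Brain had an adjusted p of 0.0502 with the authors' factors.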

How the results depend on the processing

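Counts of members are given as higher and lower. When the fit kept only genes at or above the median, fewer members were tested by construction, and the counts were 14 and 5 in Brain, 4 and 1 in Retina and 6 lower in Choroid. The tissue differences then gave 3 and 3 for Retina minus Brain, 7 lower for Choroid minus Brain and 6 lower for Choroid minus Retina, and the Positive fractions 0 and 12, 3 lower, and 6 and 0 in the same order. With an adjusted p under 0.01, a stricter threshold by construction, there were 0 lower in Retina, 16 lower in Choroid and 9 lower for the difference of Retina minus Brain, and in the Positive fractions 1 higher, 1 higher, and 7 and 3. Leaving out 1 library gave 34 to 35 and 16 to 17 in Brain, 8 to 16 and 0 to 2 in Retina, and 2 and 19 to 27 in Choroid. For the tissue differences it gave 5 to 9 and 10 to 19, 1 and 25 to 28, and 0 and 19 to 23, and for the Positive fractions 2 to 5 and 31 to 35, 1 to 3 and 11 to 15, and 7 to 13 and 3 to 5; the cause was not tested. In Retina the lower count was 1 without Positive 1, Positive 2 or Input 3 and 0 without Input 1 or 2. Nqo1 in Retina ran from -0.48 to 0.15 and changed sign without Retina Positive 2; the cause was not tested.

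With the replicate block 1 member was lower in Retina, and 2 were higher in Retina Positive over Brain Positive. Whether equal numbers of different tissues share animals was not stated. Between Positive fractions of equal number, deviations from the group means correlated at -0.116 to 0.114, with 2 of 9 above 0.1. In Brain the block gave 34 and 18, adding Cyp7b1 and Gstm5 (adjusted p = 0.035 and 0.022). In Choroid it removed Cyp4f16 (0.074) and added Akr1e1 (0.031). DESeq2 size factors, the DESeq2 Wald test, no filter and the authors' factors left each count within 1.5 times. Depth limits Choroid most, where Choroid Positive 2 held 713733 listed counts.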
